A study of Mus musculus with 6 samples.

Results

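Tetraspanins are small membrane proteins that cross the membrane several times and gather integrins, immunoglobulin-like proteins and proteases into patches of the cell surface. Megakaryocytes, the cells that shed platelets, carry several of them, among which CD9 is one of the most abundant proteins of the platelet surface and CD63 marks lysosomes and dense granules. Members are usually told apart by their partners: CD151 binds laminin-binding integrins, TSPAN9 is found near the collagen receptor GPVI, CD37 and CD53 are typical of leukocytes, and TSPAN33 belongs to a subgroup that carries the protease ADAM10 to the surface.

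The tetraspanin genes Cd9, Cd81, Cd82, Cd151, Cd37, Cd53, Tspan32, Tspan9, Tspan33 and Cd63 were followed in mouse megakaryocytes of 2 kinds, 3 arrays labelled Gata-1 knock down and 3 labelled wild type. All 6 samples were megakaryocytes grown in culture from progenitors of fetal livers of embryonic day 13.5 and collected on a gradient of bovine serum albumin. GATA1 is the zinc finger transcription factor required for megakaryocyte and red cell maturation. The labels give no strain, allele or construct, do not say how the knock down was made, and do not say whether the letters A, B and C stand for separate animals or cultures, so p-values refer to the spread among these arrays and the replicates may be technical ones. The members were all probe sets for which the platform annotation names 1 of these genes and no other, which gave 22 of 45101 probe sets and 9 of the 10 genes. Cd63 is not named by a probe set of this annotation. Among the 22, Cd9 and Cd81 had 1 probe set each, Cd82, Cd37, Cd53, Tspan32 and Tspan9 had 2 each, Tspan33 had 4 and Cd151 had 6.

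Gata1 itself read 153.5, 143.3 and 194.7 in knockdown A, B and C and 8723.7, 8246.5 and 8495.6 in wild type A, B and C, so the labels of all 6 arrays held. The 13 of 15 megakaryocyte markers named on the array, integrin and GPIb subunits and Pf4 among them, were above the bacterial control probe sets on all 6 arrays. Those controls, 27 probe sets for bacterial transcripts, served as the measure of background, and their highest signal was 60.7 to 82.2 on 5 arrays and 132 on knockdown B. Knockdown B also had the highest median signal. The highest signal of an array was 23420, 32655.4 and 28594.8 in knockdown and 23171.2, 21181.8 and 22223.9 in wild type. Values below are signals as deposited by the authors, in units of intensity on a linear scale, unless log2 is written. Log2 fold changes are knockdown minus wild type after quantile normalization of log2(signal + 32), which understates changes of dim genes.

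The tetraspanin genes Cd151, Cd53 and Tspan9 were lower in the knockdown, by 1.91-fold to 2.69-fold on their bright probe sets. Cd82, a dimmer gene, fell on 1 of its 2 probe sets, and the other did not pass. Cd9 and Cd81, close relatives and the brightest of the set, differed little between the groups, and what difference there was depended on how the arrays were scaled. Tspan32 did not pass the test as normalized, and Tspan33 was dim and did not pass. Of the 2 probe sets of Cd37, the dimmer was higher and the brighter did not pass.

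Of the 22 probe sets, 20 passed the filter on dim signals and were tested. Of these, 9 were lower, 2 were higher and 9 did not pass an adjusted p of 0.05 (limma with Benjamini-Hochberg adjustment over all 31526 probe sets tested). Across all probe sets tested 30.4% passed, 14.3% lower and 16.1% higher. Of the 9 lower probe sets, 4 belong to Cd151, so they are not 9 independent observations. With each gene read by its brightest probe set, 5 of the 9 genes were lower, 1 was higher and 3 did not pass. Among 14230 genes tested, 17.1% were lower and 18.3% higher, or 35.5% called. These shares were not matched for brightness. All 9 member genes exceeded the bacterial controls on all 6 arrays, against 10209 of the 18193 genes on the array. Cd9, 1 of the 5 lower genes, was 1.12-fold lower, a call lost with the values as deposited and with median centring. The median log2 fold change was -0.17 over the 9 genes and 0.03 over all genes tested. A fall of at least 2-fold was measured for 2 of the 9 genes, Cd151 and Cd53, and for 5.14% of all genes. Tspan9, at a log2 fold change of -0.93, fell short of it. With the values as deposited (-1.01) and with median centring (-1.21) it also reached 2-fold. In the deposited signals all knockdown arrays lay below all wild-type arrays for 9 of the 20 probe sets and above them for 3, against 16.9% and 29.1% of all probe sets tested.

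**Figure D1:**
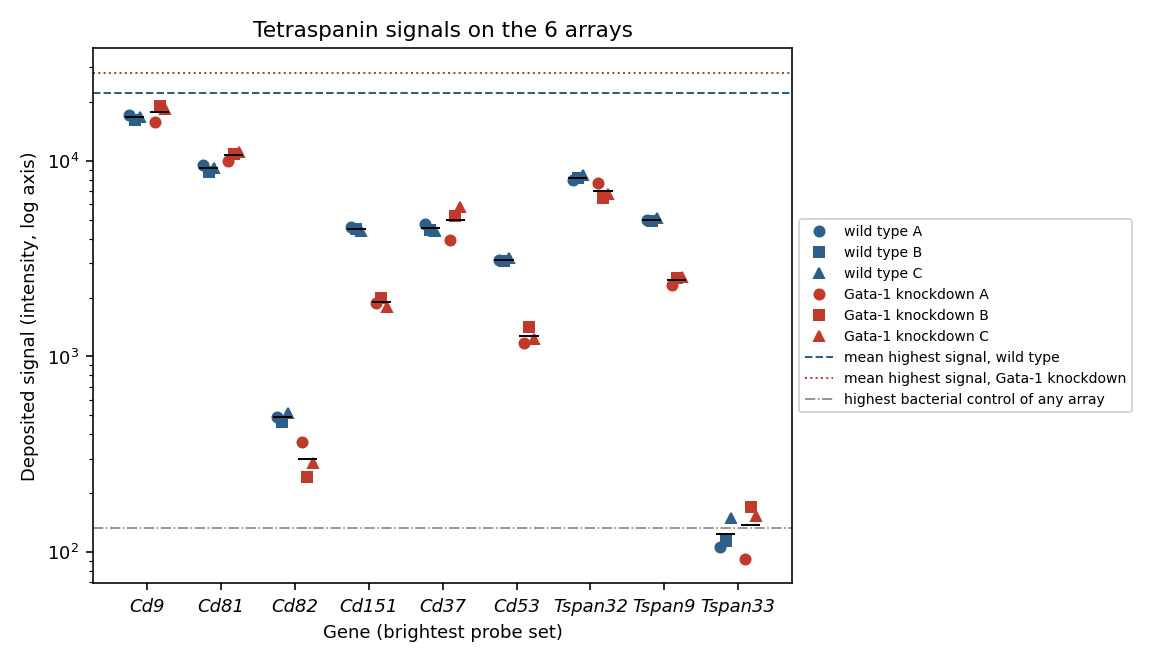
Deposited signal (log axis) of the brightest probe set of each gene, 1 point per array, with a bar at each group's mean. The dashed and dotted lines mark the mean highest signal of the wild-type and knockdown arrays and the grey line the highest bacterial control, 132. Knockdown points lie below all wild-type points for Cd151, Cd53, Tspan9, Cd82 and, narrowly, Tspan32, and above them for Cd81. Cd9 sits close under the highest signals and Tspan33 is the dimmest.

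Cd151 encodes the partner of laminin-binding integrins, and mouse platelets that lack it have impaired outside-in signalling through the fibrinogen receptor. Its probe set 1437670_x_at read 1877.7, 1990.0 and 1793.6 in knockdown A, B and C and 4580.3, 4464.6 and 4376.4 in wild type A, B and C. The groups did not overlap and each was tight, with means of 1887 ± 98.5 and 4474 ± 102 (SD, n = 3 each). The log2 fold change was -1.17 ± 0.06 (SE), with a limma adjusted p of 6.09e-07. Of the other probe sets, 3 agreed in direction and size. Probe set 1456085_x_at went from 4507 ± 62.0 to 1707 ± 125 (log2 fold change -1.33 ± 0.07), 1424093_x_at from 2902 ± 20.4 to 1142 ± 70.2 (-1.29 ± 0.07), and 1451232_at from 2513 ± 113 to 914 ± 108 (-1.43 ± 0.09). Probe sets whose names end in x_at can also bind related transcripts, and 1451232_at, which is not of that kind, showed the largest fall of these 4. The last 2 were dim and did not pass. Probe set 1427525_at, above the controls on all arrays, read 334.3, 467.6 and 458.0 in knockdown and 282.0, 363.1 and 303.9 in wild type, a log2 fold change of 0.26 with a 95% interval from -0.08 to 0.61. Its interval does not reach those of the 4 probe sets that fell, and without knockdown A it was called higher at 0.41 (limma adjusted p 0.0371). Probe set 1420921_at lay within background on all 6 arrays.

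Cd53 encodes a tetraspanin found on most white blood cells. Its probe set 1448617_at read 1172.6, 1405.6 and 1227.4 in knockdown A, B and C and 3092.3, 3061.6 and 3170.2 in wild type. The lowest wild-type array was above all knockdown arrays by a wide margin, at means of 1269 ± 122 and 3108 ± 56.0 (SD, n = 3 each). It was 2.36-fold lower (log2 fold change -1.24 ± 0.08 SE, limma adjusted p 2.32e-06). The second probe set of Cd53 lay within background on all arrays and was not tested.

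Tspan9, which encodes a tetraspanin of platelets and megakaryocytes, read 2305.2, 2510.9 and 2555.6 in knockdown A, B and C and 4954.9, 4902.4 and 5083.4 in wild type on probe set 1428197_at. The 3 knockdown arrays lay together, far below the 3 wild-type arrays. The means were 2457 ± 134 and 4980 ± 93.1 (SD, n = 3 each), with a log2 fold change of -0.93 ± 0.06 (SE) and a limma adjusted p of 1.92e-06. The dimmer probe set 1441968_at also fell, from 618 ± 35.8 to 369 ± 59.5, with a log2 fold change of -0.80 ± 0.13 and an adjusted p of 0.000786 (limma).

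The stretches around the annotated starts of these 3 genes are shown because GATA1 binds GATA motifs and these were the members with the largest falls on bright probe sets. Each runs from 250 bases before to 50 bases after a start in RefSeq (GRCm38.p6), printed 5′ to 3′ on the gene's strand, and capitals mark GATA motifs. The Cd151 window is the more upstream of 2. The Tspan9 window was taken because it is the only one of 4 that holds a motif, and the most upstream of the 4 holds none.
Cd53 (chr3:106790100-106790399, minus strand): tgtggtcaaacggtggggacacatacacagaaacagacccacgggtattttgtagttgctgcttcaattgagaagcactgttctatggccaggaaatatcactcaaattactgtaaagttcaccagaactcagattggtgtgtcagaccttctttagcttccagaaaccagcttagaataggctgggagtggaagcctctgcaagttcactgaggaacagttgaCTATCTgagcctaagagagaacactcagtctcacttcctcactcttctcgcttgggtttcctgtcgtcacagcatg
Cd151 (chr7:141467112-141467411, plus strand): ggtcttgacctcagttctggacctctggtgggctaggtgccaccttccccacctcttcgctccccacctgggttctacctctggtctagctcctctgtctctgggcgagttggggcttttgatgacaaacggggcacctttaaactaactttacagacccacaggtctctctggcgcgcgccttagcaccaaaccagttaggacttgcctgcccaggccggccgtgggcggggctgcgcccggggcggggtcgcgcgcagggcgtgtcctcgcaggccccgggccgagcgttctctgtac
Tspan9 (chr6:128124324-128124623, minus strand): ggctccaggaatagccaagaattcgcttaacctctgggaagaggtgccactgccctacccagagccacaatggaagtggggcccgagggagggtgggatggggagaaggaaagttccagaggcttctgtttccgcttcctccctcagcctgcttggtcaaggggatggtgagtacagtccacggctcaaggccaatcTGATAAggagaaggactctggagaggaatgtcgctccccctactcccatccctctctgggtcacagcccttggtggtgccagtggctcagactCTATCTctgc
The motif was searched on both strands as A or T, then GATA, then A or G. The Cd53 window holds 1 match, beginning 26 bases before the start, and the Tspan9 window holds 2, beginning 53 bases before and at base 41 after it. No window of Cd151 holds one. Among the 10 genes, Cd53, Tspan9, Cd37 and Tspan32 had a match in at least 1 window, so a match was found both in genes that fell and in genes that did not pass on their brightest probe set. Over windows, 4 of 17 held a match, or 23.5%, against 29.8% of 32851 windows of all genes. A match is a run of letters, not a measured binding site.

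**Figure D2:**
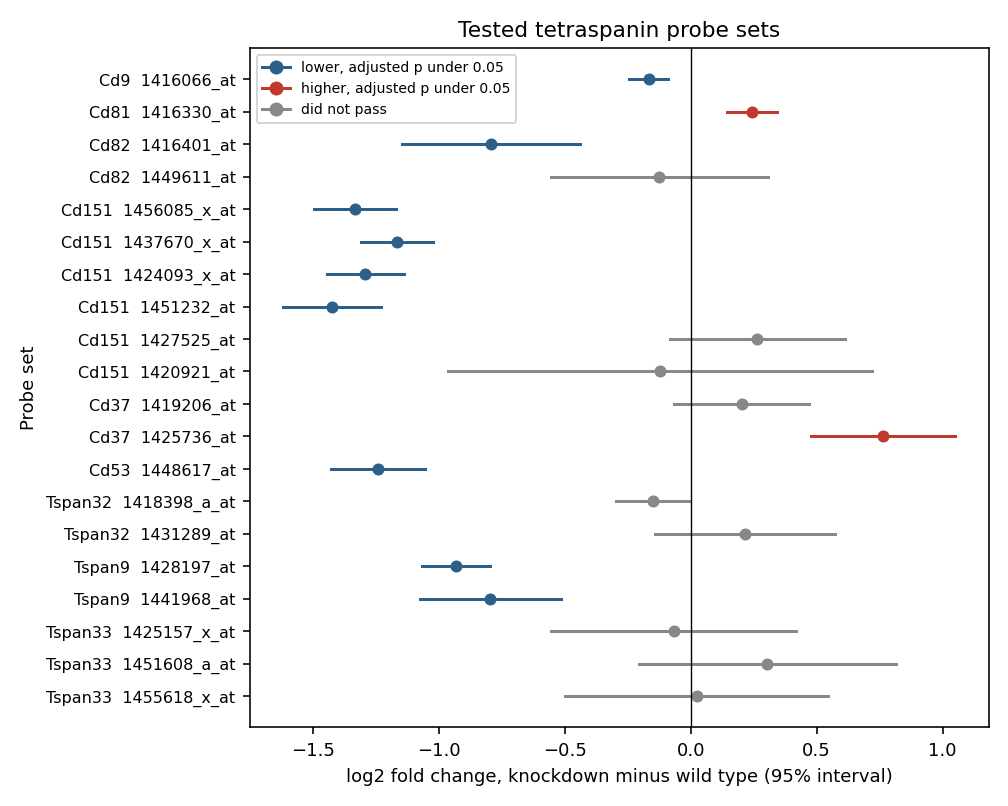
Log2 fold change (knockdown minus wild type) with its 95% interval for the 20 tested probe sets, grouped by gene and ordered by wild-type brightness within a gene. Of the Cd151 probe sets, 4 of 6, and both of Tspan9 lie well below 0, whereas the probe sets of Cd82 and of Cd37 divide between those that passed and those that did not.

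Cd82 encodes a tetraspanin known as a suppressor of metastasis. Its probe set 1416401_at read 367.2, 241.7 and 284.6 in knockdown A, B and C and 488.6, 464.6 and 512.1 in wild type. The groups did not overlap, though knockdown arrays spread more than wild type, and the log2 fold change was -0.79 ± 0.16 (SE) with a limma adjusted p of 0.00352. The other probe set, 1449611_at, read 272.0, 433.5 and 246.1 in knockdown and 345.6, 283.0 and 311.1 in wild type. These overlapped, with knockdown B the highest of all, and the log2 fold change was -0.13 with a 95% interval from -0.56 to 0.31. The difference between the 2 probe sets was not tested.

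Cd9 encodes the major tetraspanin of platelets, which lies beside the fibrinogen receptor and the EWI proteins. Its 1 probe set, 1416066_at, read 15867.1, 18984.4 and 18435.7 in knockdown A, B and C and 17069.4, 16224.1 and 16832.8 in wild type. As deposited the groups overlapped, with knockdown A lowest and knockdown B highest of all 6. These signals were a mean of 63.5% of the highest signal of their arrays in knockdown and 75.3% in wild type, so Cd9 was the only member above 50%. By brightness it ranked 154, 158 and 146 on the knockdown arrays and 89, 83 and 91 on the wild-type arrays among 45101 probe sets, a lower place on each knockdown array. Quantile normalization, which works on ranks, gave a log2 fold change of -0.17 ± 0.03 (SE), with a limma adjusted p of 0.00420. The sign turned to 0.08 with the values as deposited (adjusted p 0.425), and with median centring of the arrays the value was -0.11 (adjusted p 0.330). Whether a ceiling limits the Cd9 signal was not tested. Of the 200 brightest probe sets tested, ranked by the mean of both groups, 0% differed by at least 2-fold, against 6.96% of all tested, and their median size of log2 fold change was 0.11 against 0.29. Among the 379 tested probe sets with a mean above 50% of the highest signal in either group, 5.8% differed by at least 2-fold. Their median size was 0.17.

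Cd81 encodes a close relative of CD9, best known as a part of the B cell coreceptor. Probe set 1416330_at read 10021.6, 10884.7 and 11055.7 in knockdown A, B and C and 9506.7, 8720.4 and 9194.4 in wild type. Every knockdown array was above every wild-type array, at 38.3% and 41.2% of the highest signal on average in knockdown and wild type. Its log2 fold change was 0.24 ± 0.04 (SE), with a limma adjusted p of 0.00192, and with median centring 0.02 (adjusted p 0.871), so the call rested on the scaling. The ratio of Cd81 to Cd9 in the deposited signals does not change when an array is multiplied by 1 factor. On the log2 scale it was -0.66, -0.80 and -0.74 in knockdown and -0.84, -0.90 and -0.87 in wild type. The ratio was higher on each knockdown array, by 0.14 on average, with an exact two-sided permutation p of 0.10, the smallest that 3 against 3 arrays allow, and 0.15 after Benjamini-Hochberg adjustment over the 6 ratios to Cd9 computed.

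Read in the same way, as ratios to Cd9 within an array, Cd53 differed between knockdown and wild type by -1.38, Cd151 by -1.33 and Tspan9 by -1.10 on the log2 scale, each without overlap of the groups and each with an exact permutation p of 0.10 (0.15 adjusted over the 6 ratios). Cd37 to Cd9 differed by 0.04 (exact permutation p 0.80). Tspan32 to Cd9 differed by -0.32 (exact permutation p 0.20), with knockdown A, at -1.04, inside the wild-type range. These ratios were chosen after the values had been seen. Cd9 is itself near the highest signals of the arrays.

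**Figure D3:**
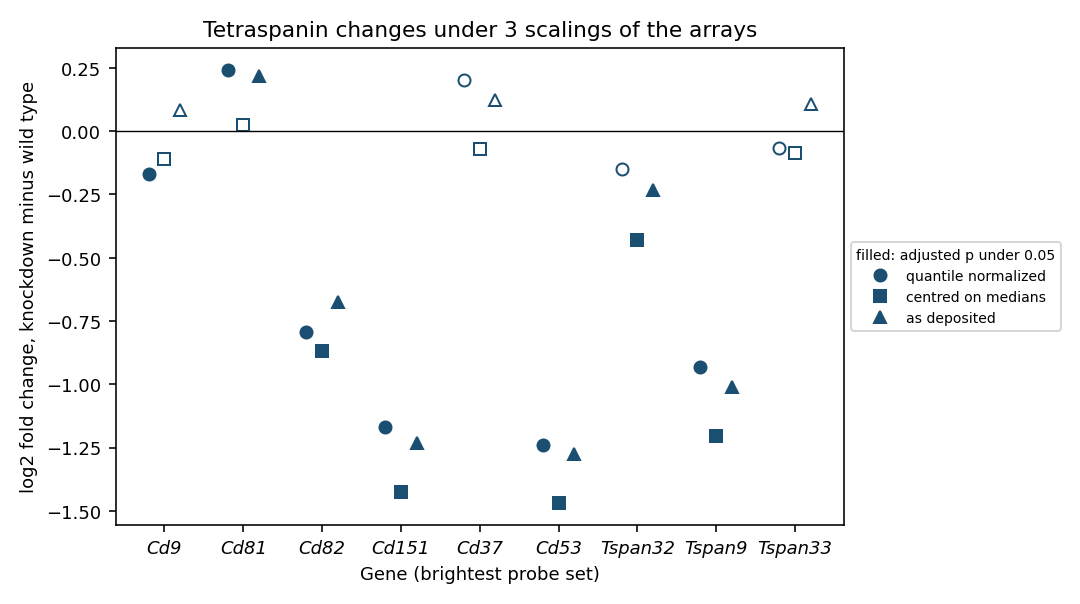
Log2 fold change of the brightest probe set of each gene under 3 scalings of the arrays: quantile normalized, centred on medians and as deposited. Filled symbols passed an adjusted p of 0.05. Cd151, Cd53, Tspan9 and Cd82 lie below 0 under all 3, whereas Cd9, Cd37 and Tspan33 cross 0. Cd9, Cd81 and Tspan32 change between passing and not passing.

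Tspan32, also called Tssc6, encodes a tetraspanin of blood cells that in mouse platelets takes part in signalling through the fibrinogen receptor. Probe set 1418398_a_at read 7715.6, 6467.4 and 6748.8 in knockdown A, B and C and 7953.5, 8181.9 and 8418.5 in wild type. As deposited, all knockdown arrays were lower, with knockdown A close to wild type A. After normalization knockdown A fell within the wild-type range and the log2 fold change was -0.15 ± 0.07 (SE; limma adjusted p 0.121). It passed without knockdown A, at -0.23 (adjusted p 0.00130), with the values as deposited, at -0.23 (adjusted p 0.0308), and with median centring, at -0.43 (adjusted p 0.0154). The second probe set, 1431289_at, had overlapping groups, a log2 fold change of 0.21 and a 95% interval from -0.14 to 0.57. Tspan32 and Cd81 are neighbours on chromosome 7, with only the noncoding gene R74862 between them in the RefSeq order of GRCm38.p6, and their log2 fold changes were -0.15 and 0.24.

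Cd37 encodes a tetraspanin of B cells and other white blood cells that in macrophages holds back the fungal receptor dectin-1. Its brighter probe set, 1419206_at, read 3939.8, 5230.5 and 5782.4 in knockdown A, B and C and 4738.3, 4443.3 and 4369.2 in wild type. Knockdown A was the lowest of all arrays and knockdown C the highest, and the log2 fold change of 0.20, with a 95% interval from -0.07 to 0.47, did not pass (limma adjusted p 0.255). Without knockdown A it was 0.37 and passed (adjusted p 0.000538), and with median centring the sign turned to -0.07 (adjusted p 0.720). The dimmer probe set, 1425736_at, read 435.3, 461.4 and 407.2 in knockdown and 197.0, 246.9 and 222.7 in wild type. These did not overlap, and the log2 fold change was 0.76 ± 0.13 (SE; limma adjusted p 0.00118). The mean of both probe sets gave 0.48 (adjusted p 0.00157). No probe set of Cd37 fell, whereas Cd53, also of white blood cells, fell on its 1 tested probe set, and the difference between the genes was not tested.

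Tspan33, first described in red cell progenitors, was dim. Probe set 1425157_x_at read 92.3, 169.8 and 152.0 in knockdown A, B and C and 106.1, 114.4 and 150.0 in wild type. The highest bacterial control of the same arrays read 82.2, 132 and 79.8 in knockdown and 65.8, 65.3 and 60.7 in wild type, lower than Tspan33 on each. Its 3 tested probe sets had log2 fold changes between -0.07 and 0.30, and none passed. Their 95% intervals together ran from -0.55 to 0.81. The fourth probe set lay within background on all arrays.

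**Figure D4:**
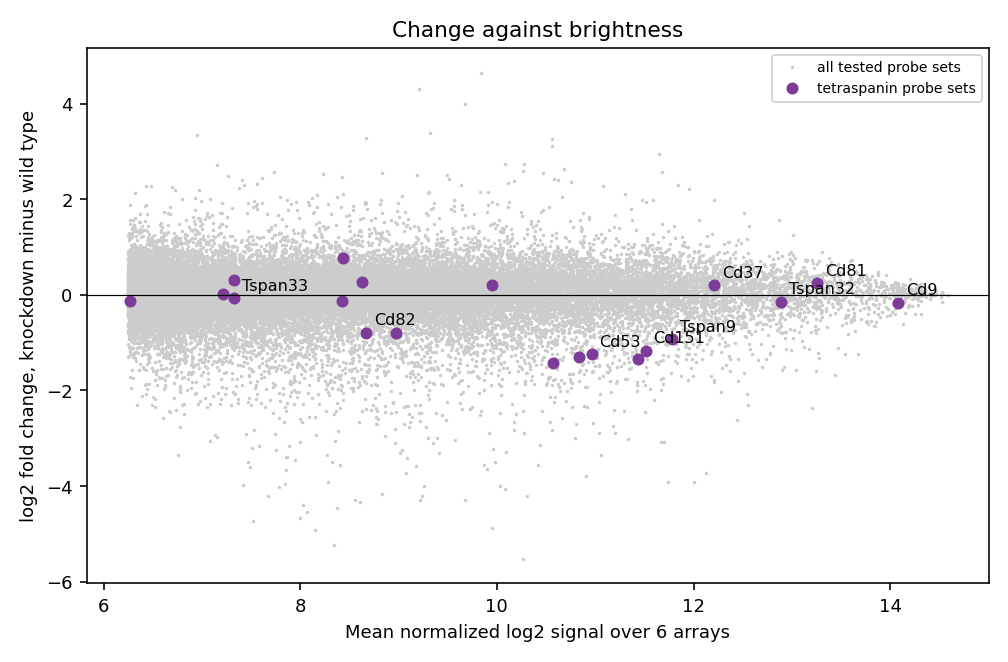
Log2 fold change (knockdown minus wild type) against mean normalized log2 signal for all 31526 tested probe sets (grey) and the 20 of the tetraspanins (purple), with the brightest probe set of each gene named. Cd9 lies at the bright end, where the whole cloud is narrow, and Cd53, Cd151 and Tspan9 lie in its lower part.

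Markers of macrophages, neutrophils and mast cells, some of which also carry tetraspanins, were mostly lower on the same knockdown arrays. Among all genes tested 17.1% were lower and 18.3% higher. Of 13 tested macrophage markers 12 were lower and 0 higher, and their summed signal was 9668.0 to 9824.2 in knockdown and 26297.8 to 26774.9 in wild type, with Marco and Timd4 within background on all arrays. Of 13 tested neutrophil markers 10 were lower, with sums of 3496.6 to 3647.5 and 12105.4 to 12556.6. Of 10 tested mast cell markers 7 were lower, with sums of 1361.8 to 1561.0 and 4457.7 to 5092.7. Of the 11 on the array, 8 were within background in knockdown and 1 in wild type. None of 10 tested lymphoid markers passed, with sums of 1259.2 to 2001.8 and 1426.7 to 1545.2, and Cd3d, Ncr1 and Pax5 were within background. Of 13 tested megakaryocyte markers 10 were lower, with sums of 128823.3 to 160047.1 and 182586.6 to 194669.5. Of 7 tested red cell markers 4 were lower and 1 higher, with sums of 7169.9 to 7282.6 and 17926.9 to 18451.9. The part of other cells in the falls of Cd53, Cd151, Cd82 and Tspan9 was not tested, and in such bulk samples fewer cells of a type and less RNA per cell cannot be told apart.

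By correlation over the 6 arrays, the genes most like Cd53, the called member with the largest change on its brightest probe set, were Map7d1 (Pearson r 0.9998), Slc38a10 (0.9997), Xpnpep1 (0.9996) and Usp18 (0.9995). The log2 fold changes were -1.30 for Map7d1, a microtubule-associated protein gene, and -0.46 for the transporter gene Slc38a10. Of the 7 tested probe sets of Slc38a10, 3 were called lower and 4 did not pass. Xpnpep1, an aminopeptidase gene, changed by -0.56, and Usp18, which removes the interferon-induced modifier ISG15, by -0.79. The arrays form 2 groups, so any gene with tight groups and lower values in knockdown scores high, and 248 of 13280 genes had r above 0.99. The correlation is a description of these arrays only.

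The remaining tetraspanin family moved in both directions. Of 21 further family genes 20 were named on the array, Tspan7 being the one not named, and 17 were tested, of which 5 were lower, 3 higher and 9 did not pass, with a median log2 fold change of 0.11. Among all genes tested 17.1% were lower and 18.3% higher. Tspan2, of platelets and of myelinating glia, read 67.6, 95.1 and 53.8 in knockdown A, B and C and 878.8, 1008.7 and 944.9 in wild type. All knockdown arrays were within background, and Tspan2 was at least 8.20-fold lower (limma adjusted p 1.22e-07). Its 3 probe sets were all called lower. Tspan6 read 335.4, 288.7 and 366.2 in knockdown and 1195.1, 1319.2 and 1116.2 in wild type, a log2 fold change of -1.85 ± 0.12 (SE; limma adjusted p 1.82e-06). Tspan18 changed by -1.18 ± 0.16 and Tspan17, of the ADAM10-binding subgroup, by -0.76 ± 0.12. The last of the 5 that fell, named after its value was seen, was the urothelial gene Upk1a, at -0.58 ± 0.15, a call lost without wild type A or B (adjusted p 0.0632 and 0.0548). The groups of these genes did not overlap.

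Higher in the knockdown were Tspan4, Tspan3 and Tspan31. Tspan4, whose product marks the retraction fibres and vesicles left behind by migrating cells, read 4789.3, 4710.0 and 5170.9 in knockdown A, B and C and 2877.4, 2763.9 and 2841.9 in wild type. All knockdown arrays were higher, with a log2 fold change of 0.86 ± 0.05 (SE; limma adjusted p 1.45e-06). Tspan3 rose by 0.65 ± 0.08 and Tspan31, named after its value was seen, by 0.35 ± 0.05, the latter on 1 of its 3 tested probe sets while the other 2 did not pass. The call of Tspan31 was lost with median centring, at 0.07 (adjusted p 0.638), which left 2 further tetraspanin genes higher, and with its probe sets averaged, at 0.14 (adjusted p 0.361).

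**Figure D5:**
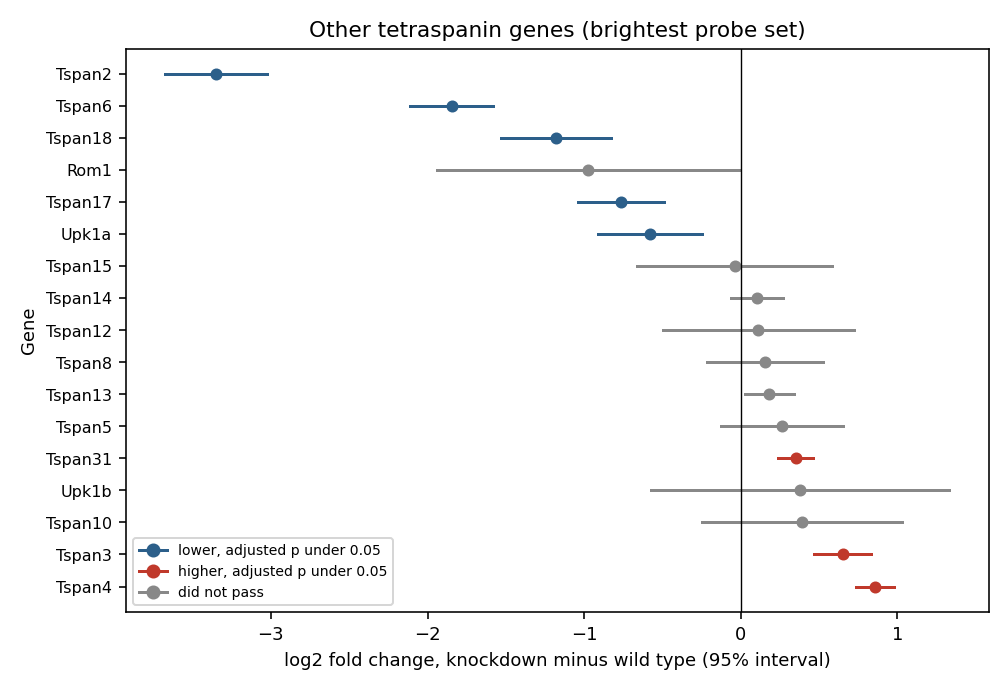
Log2 fold change (knockdown minus wild type) with its 95% interval for the 17 tested further tetraspanin genes, each by its brightest probe set. Tspan2, Tspan6 and Tspan18 lie lowest and Tspan4 highest. The Tspan2 point is the fitted value, and the bound of 8.20-fold in the text takes background into account.

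Genes for proteins that tetraspanins bind were also read. Of 37 partner genes 34 were tested, of which 15 were lower, 5 higher and 14 did not pass, with a median log2 fold change of -0.05. Over all genes tested the shares were 17.1% lower and 18.3% higher. The collagen receptor gene Gp6, whose product is found with TSPAN9, read 1593.3, 1857.1 and 1473.8 in knockdown A, B and C and 5831.8, 4964.5 and 5198.8 in wild type. It was lower on every knockdown array, by -1.63 ± 0.10 on the log2 scale (SE; limma adjusted p 1.09e-06). Itgb3, at a mean of 50.7% of the highest signal in knockdown and 76.7% in wild type, had a log2 fold change of -0.44 ± 0.04 and Itgb1 of -0.32 ± 0.05, and both passed (the latter not with the gene's probe sets averaged). Itga6, the laminin receptor subunit that CD151 binds, read 11193.1, 10558.8 and 11381.5 in knockdown and 11221.5, 11001.3 and 11481.1 in wild type, a log2 fold change of -0.01 (adjusted p 0.884). Its other probe set, 1422444_at, was called lower at -0.13 ± 0.04 (adjusted p 0.0353), so 1 of its 2 tested probe sets passed. Itga2b had -0.03 (adjusted p 0.812), at 80.2% and 83.3% of the highest signal. Gp6, Itgb3 and Itga2b were also counted among the megakaryocyte markers above.

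The EWI protein gene Igsf8, a direct partner of CD9 and CD81, had a log2 fold change of -1.0 ± 0.31 (SE; limma adjusted p 0.0316), a call lost without any 1 of the wild-type arrays, at adjusted p of 0.0589 to 0.102. The other EWI gene, Ptgfrn, lay within background on all arrays. Adam10, the protease carried by TSPAN33 and its relatives, had -0.27 ± 0.08 (limma adjusted p 0.0297), and the adjusted p rose to between 0.0591 and 0.115 without any 1 array but knockdown A. Its other probe sets did not all agree, 1 being called higher. The further partner genes with the largest changes were Cd36, at -1.83 ± 0.08, Icam1, at -1.62 ± 0.19, and Cd44, at -1.20 ± 0.10, scavenger and adhesion receptors of several blood cells, with the integrin gene Itga2 at -1.03 ± 0.28, a call lost without wild type A or C (adjusted p 0.0597 and 0.0699). Of the 3 tested probe sets of Cd36, 2 were called lower and 1 did not pass. Igsf8, Icam1 and Itga2 exceeded the bacterial controls on all wild-type arrays and on 2 of 3 in knockdown. Hbegf, a growth factor precursor that CD9 binds, rose by 1.52 ± 0.13, from 130 ± 5.95 to 479 ± 13.9 (SD, n = 3).

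Membranes of lysosomes and platelet granules, where CD63 resides, were read through 20 tested genes, of which 8 were lower, 1 higher and 11 did not pass, with a median log2 fold change of -0.19. Across all genes tested 17.1% were lower and 18.3% higher. The listed genes with the largest falls were Cd68 at -1.08 ± 0.09, Hps4, needed for dense granules, at -1.05 ± 0.06, and the lysosomal gene Scarb2 at -1.02 ± 0.11 (SE). Cd68 was also counted among the macrophage markers above. The P-selectin gene Selp and the cholesterol transporter gene Npc1 each changed by -0.67, with SE of 0.07 and 0.10. Vps33b, needed for alpha granules, was the gene that rose, by 1.28 ± 0.08, from 1976 ± 79.9 to 4655 ± 494 (SD, n = 3). All 6 had a limma adjusted p of 0.000636 or less and groups that did not overlap.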

How the data were processed

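Expression was measured on 6 Affymetrix mouse arrays, 3 knockdown and 3 wild type, grouped by the sample titles. The deposited table holds 1 intensity per probe set on a linear scale, and after trimming 2% from both ends the 6 arrays had 1 mean of 500, which the authors had set by scaling. No aligner, software or build is named there (not given in the sources used here). Members and gene lists were chosen with earlier results of these data known.

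Signals were taken as log2(signal + 32) and quantile normalized, since array medians spanned 0.346 on that scale. The 64 control probe sets and those with a mean below the 30th percentile were left out. Groups were compared with limma 3.58.1 in R 4.3.3 (lmFit, eBayes with intensity trend, group as the only term, two-sided), with Benjamini-Hochberg adjustment over 31526 probe sets at 0.05. A gene was read by its brightest probe set. Symbols were updated by gene number with GRCm38.p6 names. Lists gave up to 6 called genes with groups that did not overlap and the largest changes, besides 8 partner genes named whatever their values. Within background means that, in a group, a gene did not exceed the highest of 27 bacterial controls on any array of it, and its fold is then a bound against those controls. Same-letter samples did not deviate together (correlations of -0.04 to -0.01), so letters were not used as pairs. The number of arrays limits precision. The alternatives were other offsets, scalings and filters, the mean of all probe sets, the letter as a block and each array left out.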

Additional observations from a re-analysis of the deposited data

How the results depend on the processing

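The falls of Cd151, on 4 probe sets, of Cd53, of Tspan9, on 2, and of Cd82, on 1, kept their direction and passed under every alternative run. Cd9 turned from -0.17 to 0.084 with the values as deposited. The number of member probe sets called higher was 2, and 1 with arrays centred on their medians. The number of member genes called higher was 1, and it was 0 with that centring and 2 with a gene's probe sets averaged. The number of member genes called lower stayed at 5 with the values as deposited and with median centring, where Tspan32 passed and Cd9 did not. Leaving out each array gave 2 to 4 member probe sets higher and 1 to 2 member genes higher, the upper values without knockdown A, 3 to 5 further tetraspanin genes higher, the upper value also without knockdown A, 3 to 6 partner genes higher against 5, and 1 to 2 genes of lysosome and granule membranes higher, the upper value without knockdown A. Partner genes called higher were 2 with median centring, 3 with no filter and 3 with the replicate letter as a block, and the block moved no count of member calls. Partner genes called lower were 15, and 10 to 16 over the alternatives, fewest with a gene's probe sets averaged. They were 11 without wild type A or without wild type C. Genes of lysosome and granule membranes called lower were 8, and 6 to 10 over the alternatives. Of all calls, 52.9% were higher in knockdown, 32.9% with median centring and 60.0% with values as deposited, and the latter moved the median of all probe sets by 0.109 (log2). The cause of these shifts was not tested. Dim probe sets, such as those of Tspan33, limit what could be seen.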
